A study of Arabidopsis thaliana with 2 samples.

Results

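Transcripts of 9 heat shock protein genes and of HSFA2, a heat shock transcription factor gene, were examined in Arabidopsis thaliana seedlings exposed to cadmium, a toxic heavy metal. The 10 genes were taken as a fixed list of probe sets, 1 per gene, out of 22746 plant probe sets on the Affymetrix ATH1 array. They comprise 3 large chaperones, 6 small heat shock proteins and the transcription factor. The series holds 1 array of seedlings given 200 µM cadmium and 1 array of untreated seedlings. Both came from whole seedlings of accession Col-0, 7 days old, grown on dilute MS medium at 28 °C, which per the labels applies to the control too. The labels give the exposure as 4 hours for the cadmium sample itself and as 6 hours in the treatment protocol, and the values do not settle which is right. There were no replicates. Every value therefore stands for 1 array and every difference for 1 pair of arrays, and no test of the differences is possible.

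Heat shock proteins are molecular chaperones that bind unfolded or damaged proteins. Small heat shock proteins hold unfolding proteins in a soluble state, the HSP70 and HSP90 families refold or mature them with the energy of ATP, and HSP101, a ClpB-type disaggregase, pulls proteins out of aggregates. In plants the heat shock factors bind heat shock elements in the promoters of these genes. HSFA2 is itself made in response to heat and other stress and prolongs the expression of its targets. Cadmium binds to thiol groups and is known to disturb protein folding in many organisms.

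Values are RMA signals (robust multi-array average) on the log2 scale, where a difference of 1 is 2-fold. Plant probe sets had a median of 6.22 (range 3.28 to 13.64) with cadmium and of 6.19 (range 3.27 to 13.60) without. A percentile below is the share of plant probe sets with a lower value on the same array. It describes the strength of a signal and not the amount of a transcript, since probe sets differ in how well they bind. The table has no detection calls. The technical yardsticks are the array's own controls. The 16 probe sets of actin, GAPDH and ubiquitin had a pooled SD of 0.09 around the mean difference of their transcript, and their mean difference was 0.10. On the control array their values ran from 9.54 to 13.01, above those of all 10 genes, so this SD may not hold for weaker signals. The added hybridization controls bioB, bioC, bioD and cre differed by -0.22 on average, so shifts of this size between the arrays cannot be told apart from scaling. They were not alike, with -0.27 for bioB, -0.28 for bioC, -0.25 for bioD and -0.07 for cre. In whole seedlings, fewer cells of a type and less RNA per cell cannot be told apart either.

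The 3 large chaperones and 1 small heat shock protein, HSP17.4, were more than 2-fold higher on the cadmium array. The other 6 genes differed by less than 2-fold, with differences of 0.05 or less for HSP18.2 and HSP23.6-MITO. At least 2-fold higher values were thus found for 4 of the 10 genes, against 0.422% of all plant probe sets (96 of 22746). The genes were chosen with earlier results of these data known, so this and the following shares are descriptions and no test of the list. At least 2-fold lower values were found for 0 of the 10 genes, against 0.624% of all plant probe sets. At a limit of 1.5-fold, 5 of the 10 genes were higher, against 1.46% of all plant probe sets, and 0 were lower, against 2.49%. At 3-fold, 2 of the 10 were higher, against 0.101%, and 0 were lower, against 0.123%. Over the 10 genes the differences had a median of 0.49, and over the whole array one of 0.02. All 10 deposited differences were above 0, against 54.7% of all plant probe sets, but 8 of the 10 were above 0 after scaling to actin, GAPDH and ubiquitin or after subtraction of a lowess curve, and 9 of the 10 after a repeated quantile normalization.

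**Figure D1:**
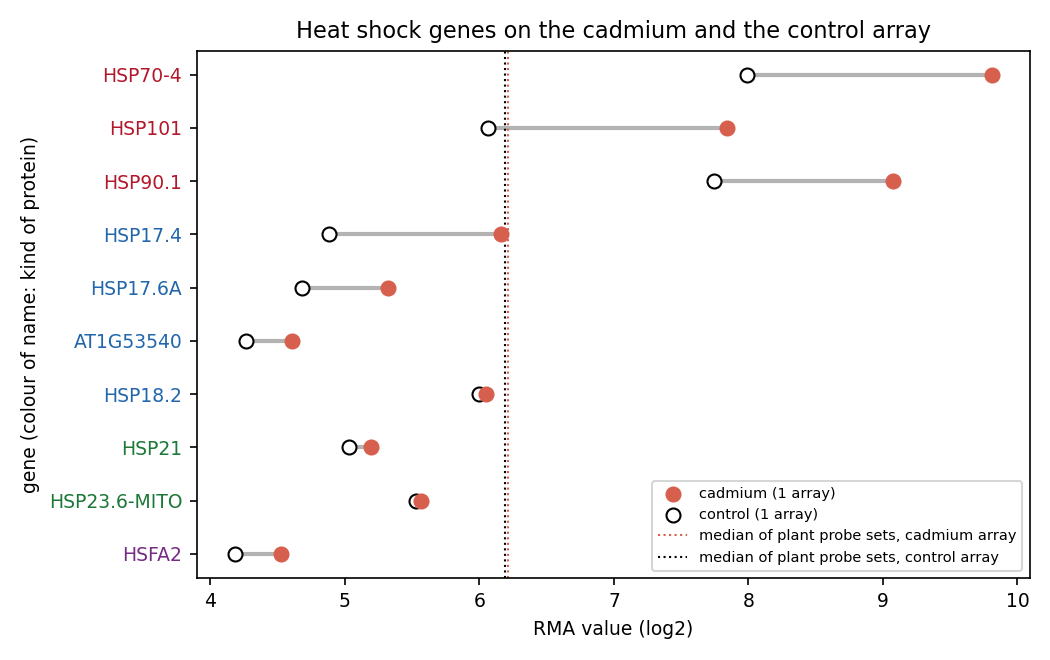
RMA value (log2) of each of the 10 genes on the cadmium array (filled) and the control array (open), 1 array each, with the medians of all plant probe sets as dotted lines; names are coloured by kind of protein (red large chaperones, blue cytosolic and green organellar small heat shock proteins, purple transcription factor). The gaps are widest for HSP70-4 and HSP101 (1.82 and 1.78) and closed to 0.05 or less for HSP18.2 and HSP23.6-MITO.

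HSP70-4 (AT3G12580, probe set 256245_at, listed simply as HSP70 by RefSeq) is a cytosolic HSP70 whose transcript is strongly induced by heat. Its value was 9.81 on the cadmium array, against 7.99 on the control array. The difference of 1.82, or 3.52-fold, was the largest of the 10 genes and ranked 14th among all plant probe sets. Its signal lay at percentile 93.0 on the cadmium array and at percentile 75.5 on the control array.

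HSP101 (AT1G74310, 260248_at), the disaggregase needed for acquired heat tolerance in Arabidopsis, was measured at 7.84 with cadmium and 6.07 without. This was 3.43-fold higher with cadmium, a difference of 1.78 that ranked 17th among all plant probe sets. The gap of 0.04 between the differences of HSP70-4 and HSP101 was smaller than the 0.09 scatter of the actin, GAPDH and ubiquitin probe sets, so their order is not resolved. The HSP101 signal lay at percentile 74.4 on the cadmium array and at percentile 48.0, near the middle, on the control array.

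HSP90.1 (AT5G52640, 248332_at) encodes the heat-inducible member of the cytosolic HSP90 family, whose members mature kinases, receptors and other client proteins. The probe set was measured at 9.07 on the cadmium array and 7.75 on the control array, a difference of 1.33, or 2.51-fold. It ranked 38th among all plant probe sets. The difference lay 0.45 below that of HSP101. This gap was larger than the scatter of the reference probe sets, although that scatter comes from stronger control signals and does not hold the variation between samples.

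The 4 cytosolic small heat shock proteins were spread from a 2.42-fold difference to almost none. HSP17.4 (AT3G46230, 252515_at), a class I protein of the cytosol, was measured at 6.16 with cadmium and 4.88 without, which was 2.42-fold higher and ranked 46th among all plant probe sets. Its difference of 1.28 lay only 0.05 under that of HSP90.1, less than the scatter of the reference probe sets. Its control value was low, however. On the linear scale it was 71.5 with cadmium and 29.5 without, and with 32 added to each linear value the difference was 0.75 on the log2 scale, which is under 2-fold.

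HSP17.6A (AT5G12030, 250351_at), a class II protein of the cytosol, was measured at 5.32 on the cadmium array and 4.68 on the control array. The difference of 0.64, or 1.56-fold, ranked 266th among all plant probe sets, at percentile 99.2 of the 5686 probe sets in its class when the array was divided into 4 equal classes by mean level. In order of size it came after HSP17.4 and before HSFA2. All 3 had weak signals on the control array, and with 32 added to each linear value they differed by 0.75 for HSP17.4, 0.32 for HSP17.6A and 0.13 for HSFA2.

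AT1G53540 (260978_at), the small heat shock protein that carries no symbol in RefSeq, was measured at 4.61 with cadmium and 4.27 without, a difference of 0.34. HSP18.2 (AT5G59720, 247691_at), a class I protein like HSP17.4, was measured at 6.05 with cadmium and 6.00 without. Its difference of 0.05, or 1.03-fold, was within the scatter of the reference probe sets, and it was -0.05 after scaling to actin, GAPDH and ubiquitin. On the deposited scale the HSP18.2 signal lay at percentile 47.2 on the cadmium array and 47.0 on the control array. Without detection calls, how much of this signal comes from the transcript was not tested.

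The 2 organellar small heat shock proteins also differed little. HSP21 (AT4G27670, 253884_at), which protects the photosynthetic apparatus in the chloroplast, was measured at 5.19 with cadmium and 5.03 without, a difference of 0.16. HSP23.6-MITO (AT4G25200, 254059_at), a protein of the mitochondrion, was measured at 5.56 with cadmium and 5.53 without, a difference of 0.03. Its sign changed with the scaling, to -0.07 after scaling to actin, GAPDH and ubiquitin and -0.04 after subtraction of the lowess curve.

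HSFA2 (AT2G26150, 266841_at) was measured at 4.52 on the cadmium array and 4.18 on the control array, a difference of 0.35, or 1.27-fold. This is the same size as the difference of AT1G53540, from which it lay less than 0.01 away. Both were among the weakest signals of the array. HSFA2 lay at percentile 18.3 on the cadmium array and 12.1 on the control array, and AT1G53540 at 20.2 and 14.1. Both lay under the highest of the 27 Bacillus and trpn control probe sets on both arrays (4.98 with cadmium and 4.95 without), and HSP17.4 and HSP17.6A lay under it on the control array only. Whether those controls were added to the samples is not given in the sources used here. Few genes of any kind differed much at this level. In the lowest of the 4 level classes, 1 of 5687 probe sets was at least 2-fold higher, against 44 of 5687 in the highest class. Within the lowest class the difference of HSFA2 was at percentile 97.7 and that of AT1G53540 at percentile 97.5. The classes were made from the mean of both arrays, so a gene far higher on 1 of them tends to move up a class.

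**Figure D2:**
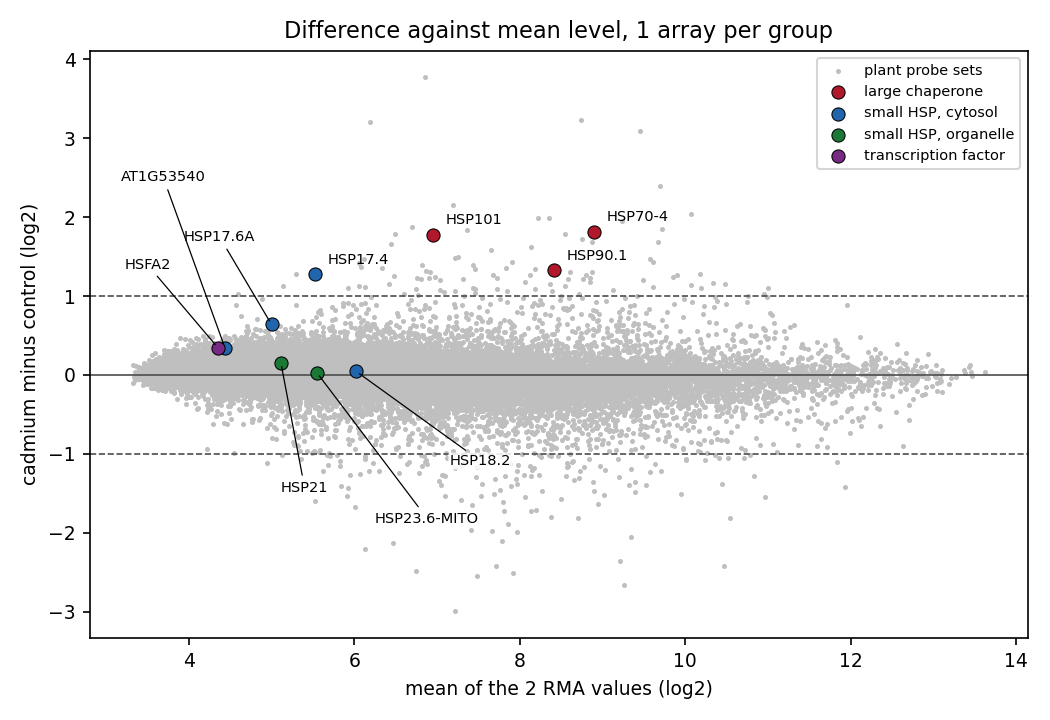
Difference between the cadmium and the control array (log2) against the mean of both values (log2) for all 22746 plant probe sets (grey) and the 10 genes (coloured by kind of protein); dashed lines mark 2-fold. HSP70-4, HSP101, HSP90.1 and HSP17.4 stand above the upper line, while HSFA2 and AT1G53540 lie at the low end of the scale, where the differences are small for nearly all probe sets.

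By kind of protein, all 3 large chaperones among the 10 genes passed 2-fold, with a median difference of 1.78. The same held for 1 of the 4 cytosolic small heat shock proteins (median 0.49) and 0 of the 2 organellar ones (median 0.09), against 0.422% of all plant probe sets. Outside the 10, the median difference was 0.79 for the 2 readable other HSP70 genes and 0.13 for the 9 readable other small heat shock protein loci. Counts at the 2-fold limit went the other way. Both other HSP70 genes stayed under it in the deposited values (0.80 and 0.78). Of the other small heat shock protein loci, 3 passed it (1.22, 1.17 and 1.15). No other HSP90 or ClpB locus could be read. The probe sets of HSP101 and HSP18.2, with differences of 1.78 and 0.05, lay at percentiles 48.0 and 47.0 of the control array. A like percentile does not mean a like amount of transcript. The groups within the 10 hold 1 to 4 genes each, and all groups were described, not tested.

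Other genes of the chaperone network were examined from a list of loci, of which those with a probe set assigned to a single gene could be read. These loci too were chosen with earlier results of these data known. Of 12 other small heat shock protein loci, 9 could be read. At least 2-fold higher values were found for 3 of the 9, against 0.422% of all plant probe sets, and at least 2-fold lower values for 0. AT1G54050 was measured at 7.52 with cadmium and 6.30 without, a difference of 1.22. AT5G51440 was measured at 8.65 with cadmium and 7.48 without, a difference of 1.17. AT2G29500 was measured at 7.00 with cadmium and 5.85 without, a difference of 1.15. The remaining 6 ranged from -0.27 to 0.22, and the list median was 0.13. With 32 added to each linear value, 1 of the 3, AT5G51440, stayed above 2-fold (1.04). The loci of this list were not sorted by compartment, so organellar proteins may be among them, also among the 3 past 2-fold. The small differences of the 2 organellar genes among the 10 therefore do not describe organellar small heat shock proteins as a kind.

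Of 13 other HSP70 loci, 2 could be read, and both were higher by less than 2-fold. Hsp70-2 (AT5G02490) was measured at 9.72 with cadmium and 8.92 without, a difference of 0.80, or 1.74-fold, which was 1.02 after scaling to the hybridization controls. AT3G09440 was measured at 11.41 with cadmium and 10.63 without, a difference of 0.78. Their differences ranked 173rd and 182nd among all plant probe sets, against rank 14 for HSP70-4. The 2 probe sets showed strong signals on both arrays, at percentile 86.0 or higher.

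Of 19 loci of co-chaperones and other heat-induced genes, 10 could be read. At least 2-fold higher values were found for 0 of the 10, against 0.422% of all plant probe sets. At least 2-fold lower values were found for 0 as well, against 0.624%. With 10 loci and shares this small, counts of 0 cannot tell whether the list differs from the array. AT2G20560 (4.81 with cadmium and 4.47 without), AT5G48570 (4.34 and 3.89) and Hop3 (4.22 and 4.05) were weak signals. They lay under the highest Bacillus and trpn control on both arrays, where few probe sets pass 2-fold. The largest difference was that of Fes1A, a partner of cytosolic HSP70, which was measured at 8.97 with cadmium and 8.14 without, a difference of 0.84, or 1.05 after scaling to the hybridization controls. The 10 differences had a median of 0.15, and 7 of them were above 0, against 54.7% of all plant probe sets. The count was 6 after scaling to actin, GAPDH and ubiquitin and 9 after scaling to the hybridization controls, which also moved the median of all plant probe sets to -0.08 and 0.24. Hop1, an adaptor that joins HSP70 to HSP90, had the lowest, at 4.70 with cadmium and 5.36 without, a difference of -0.66. Its cadmium value lay under the highest Bacillus and trpn control (4.98), and the difference was -0.34 with 32 added to each linear value. Hop1 was chosen for mention after its values were seen.

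Of 12 loci of protein folding in the endoplasmic reticulum and its stress response, 4 could be read, among them the transcription factor gene BZIP60 and DER1, which acts in protein degradation. At least 2-fold higher values were found for 0 of the 4, against 0.422% of all plant probe sets. At least 2-fold lower values were found for 0, against 0.624%. With 4 loci and shares this small, these counts cannot tell whether the list differs from the array. The calreticulin gene CRT1b was measured at 8.76 with cadmium and 9.38 without, a difference of -0.63 that stayed below 0 under the scalings tried. The median of the 4 was -0.12, and it was 0.10 after scaling to the hybridization controls. DER1, read by 2 probe sets, differed by -0.05 in one and 0.00 in the other. Of 12 proteasome subunit loci only RPN12a could be read, with a difference of 0.10. None of the 6 other HSP90 loci, the 2 other ClpB loci or the 20 other heat shock factor loci could be read here.

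**Figure D3:**
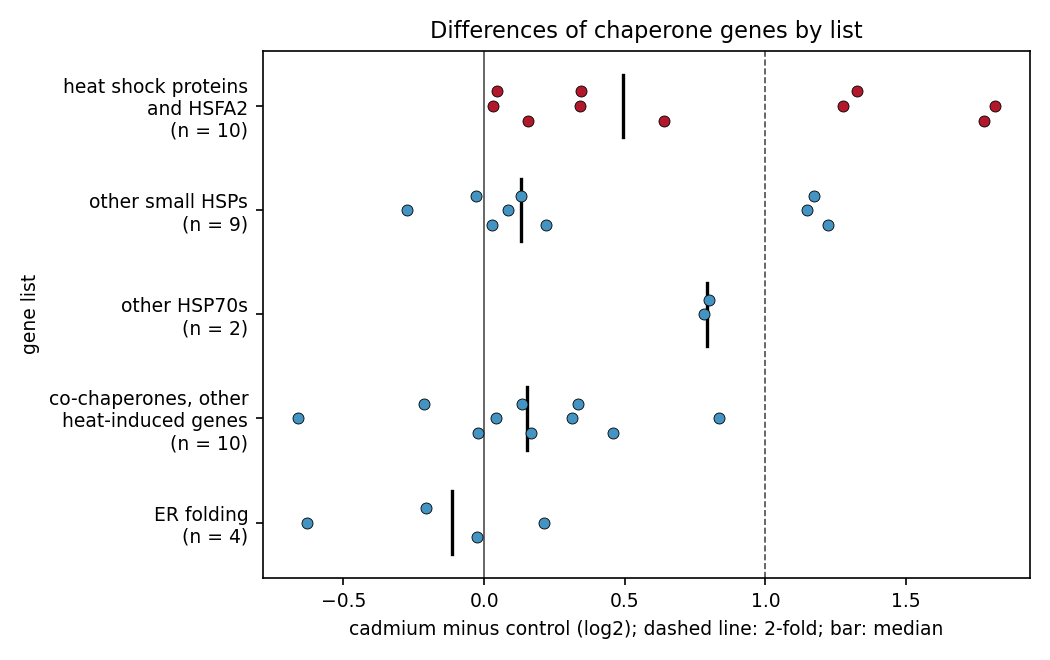
Difference between the cadmium and the control array (log2) of each gene, by list, with the list median as a bar and 2-fold as a dashed line. The 10 genes (red) reach 1.82; 3 other small heat shock protein loci lie between 1.15 and 1.22, both readable other HSP70 genes near 0.80, and the readable genes of endoplasmic reticulum folding between -0.63 and 0.21.

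The labelled tissue could be checked only in part. Of 8 root marker loci 2 could be read, and no locus of the shoot, flower or seed marker lists. PYK10, an abundant root beta-glucosidase, was measured at 12.49 with cadmium and 12.22 without, and the root hair expansin EXPA7 at 6.08 with cadmium and 6.74 without. The 2 root markers thus differed in opposite directions, by 0.28 and -0.67, and their part in the differences of the heat shock genes was not tested.

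The values of the 10 genes moved with the handling of the arrays. The median subtraction and both scalings to controls add 1 constant to every gene, so they cannot change the order of the genes. HSP70-4 ranged from 1.70 to 2.03, HSP101 from 1.40 to 1.995 and HSP90.1 from 1.21 to 1.54 over the alternatives, all above 2-fold. HSP17.4 ranged from 0.75 to 1.49. HSFA2 ranged from 0.13 to 0.56, and HSP17.6A from 0.32 to 0.86, under 2-fold throughout.

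**Figure D4:**
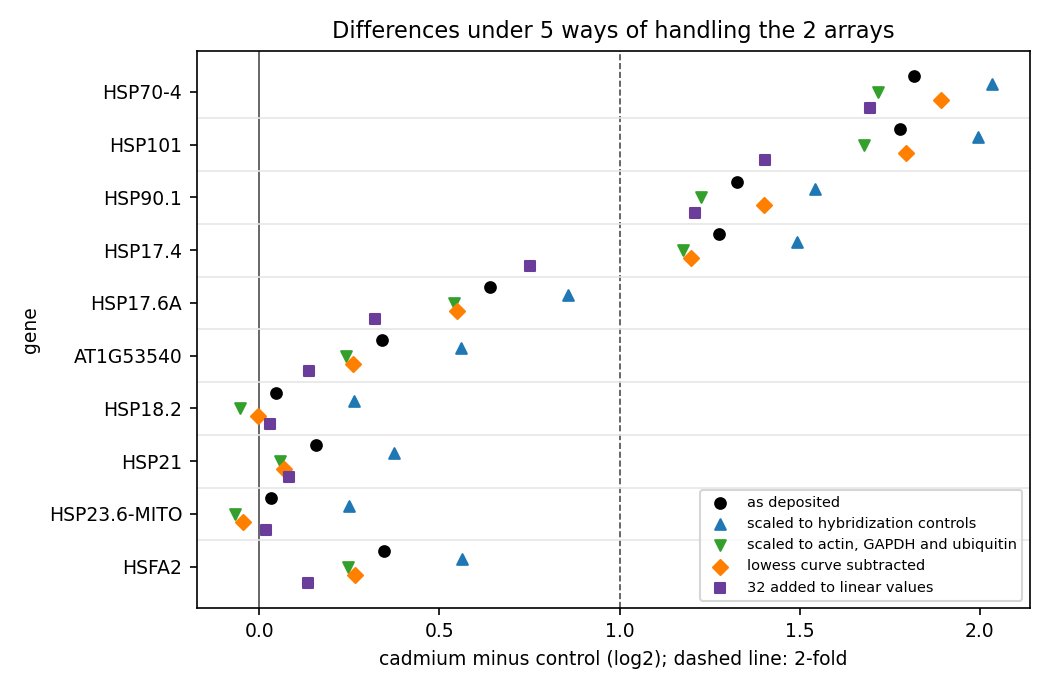
Difference between the cadmium and the control array (log2) of each gene as deposited and under 4 alternatives (marker shapes); the dashed line marks 2-fold. HSP70-4, HSP101 and HSP90.1 stay right of the line under each, HSP17.4 crosses it with 32 added to the linear values (0.75), and HSP18.2 and HSP23.6-MITO fall on either side of 0.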

How the data were processed

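Total RNA of whole seedlings was biotin-labelled and hybridized to Affymetrix ATH1 arrays, 1 per sample. The deposited values are log2 signals per probe set. RMA and the R package affy are named per the submitters' processing notes, and no source used here gives their options or says which arrays were normalized together. The quantile step usual in RMA would hide a shift of most transcripts.

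Of 22810 probe sets, 64 are Affymetrix controls. The 10 genes are paired with probe sets by the list that defines them. Their identifiers end in _at, the suffix of probe sets designed for a single transcript. The platform annotation gives 1 gene for 13513 probe sets and several for 503. It holds 1 of the 10 (AT1G53540, with the same gene) and leaves 8730 plant probe sets unnamed here. For 12 other lists of 120 loci, 28 loci could be read through 1-gene probe sets matched by gene ID to RefSeq (TAIR10.1), with probe sets of a locus averaged. The members and lists were chosen with earlier results of these data known.

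Differences are cadmium minus control, counted at 2-fold. In each other list, genes past 2-fold were named, or else that with the largest absolute difference. With 2 arrays no likeness of pattern could be ranked. The number of arrays limits the precision. Alternatives were subtraction of the median or a lowess curve (fraction 0.3), scaling to hybridization controls or to actin, GAPDH and ubiquitin, repeated quantile normalization, 32 added to linear values, a filter on low levels, omission of _s_at and _x_at probe sets, 1.5-fold and 3-fold limits, and omission of each gene in turn. The counting was tested on simulated data. Python 3.11.15, numpy 2.4.6, pandas 2.3.3, statsmodels 0.14.6 and matplotlib 3.10.9 were used. Planned promoter and protein comparisons were not run, as no sequences were used here.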

Additional observations from a re-analysis of the deposited data

How the results depend on the processing

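The count of 4 genes at least 2-fold higher was 3 with 32 added to each linear value, where HSP17.4 dropped out. It was 5 at the 1.5-fold limit and 2 at the 3-fold limit, and 4 under each other scaling. No gene was at least 2-fold lower under any alternative. The median difference of the 10 genes, 0.49 as deposited, was 0.71 after scaling to the hybridization controls, 0.39 after scaling to actin, GAPDH and ubiquitin and 0.23 with 32 added. The filter on low levels is no check here. It keeps genes by the mean of both arrays and kept HSP101 through its cadmium value, since its control value of 6.07 lay under that array's median of 6.19. Over the 3 genes kept, all 3 past 2-fold, the median was 1.78. Leaving out 1 gene at a time gave medians of 0.35 to 0.64, so it is a loose summary of a divided list. Sign changes were limited to HSP18.2 and HSP23.6-MITO. HSP18.2 was at 0.00 after subtraction of the lowess curve and at -0.05 after scaling to actin, GAPDH and ubiquitin. HSP23.6-MITO was at -0.04, at -0.07 and, after repeated quantile normalization, at -0.02. The scaling to the hybridization controls raised the median of all plant probe sets to 0.24, and that to actin, GAPDH and ubiquitin lowered it to -0.08. The cause of these shifts between the controls was not tested. No paired analysis was possible because each group has 1 array, and for the same reason no array could be left out. Weak signals limit what can be said of HSFA2 and AT1G53540.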
